A study of Mus musculus with 5 samples.

Results

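Messenger RNAs of the proteasome were followed in adult mouse heart muscle cells that had received 4 reprogramming factors. The proteasome subunits were chosen by name, though with earlier results of these data known. They were all protein-coding entries whose symbol is Psma, Psmb, Psmc, Psmd, Psme, Psmf or Psmg followed by a number. They were 45 of the 12446 genes in the deposited table, of which 11586 were protein-coding. By role, 7 members form the alpha ring and 7 the constitutive beta ring of the core particle. The cap that sits on the core had 17 members, namely 6 ATPases and 3 further subunits of its base and 8 subunits of its lid. The immunoproteasome group had 4 members (Psmb8, Psmb10, Psme1 and Psme2), and 3 were other regulators of the core (Psme3, Psme4 and Psmf1). Another 3 members are assembly chaperones of the cap and 4 are assembly chaperones of the core. Psmb9, Psma8 and Psmb11 have no entry under these symbols in the deposited table, so they were not analysed here. All 45 members passed the filter on low values.

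The proteasome degrades proteins that carry ubiquitin chains. Its core is a barrel of alpha and beta rings, and the proteolytic sites lie inside, on the beta subunits Psmb5, Psmb6 and Psmb7. The cap binds ubiquitin chains with its receptors, cuts them off with the lid subunit Psmd14, and unfolds and threads the protein into the core with its ring of ATPases. In cells exposed to interferon, Psmb8, Psmb9 and Psmb10 take the places of Psmb5, Psmb6 and Psmb7, and the ring of Psme1 and Psme2 (PA28 alpha and beta) can open the core without ubiquitin. Heart muscle cells seldom divide and replace their contractile proteins in part through this route.

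There were 3 libraries of OSKM-CMs (replicates 1, 2 and 3) and 2 of Control-CMs (replicates 3 and 5), all of total RNA from cardiomyocytes isolated from the hearts of male C57BL/6 mice. OSKM mice received Oct4-His6, Sox2-Flag, Klf4-HA and Myc-V5 from 4 separate adeno-associated virus (AAV) vectors injected together into the chest cavity, and control mice a vector for blue fluorescent protein (BFP). The dose per gram of body weight was 2.5e10 virus genomes for each OSKM vector and 1e11 for the control vector. In both groups the cardiac troponin T promoter (cTnT), active in cardiomyocytes, drove expression from the vectors. Mice were injected at 8 weeks and were 12 to 14 weeks old per the labels. No label ties a library to a mouse of its own. The p-values therefore describe the spread among these samples alone, and that spread may be technical.

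Reads over the listed genes totalled 2691797 to 2780753 in the OSKM libraries and 3519628 and 3861806 in the controls. Of these, 12774 to 14452 reads per library fell on the members. Transcripts of the 4 delivered factors were higher in all 3 OSKM libraries than in both controls. Cardiomyocyte markers were abundant in all libraries, with a summed level of 15219.5 to 18402 scaled RPKM (reads adjusted for gene length and depth, then rescaled between libraries) in OSKM-CMs and 27103 and 29725 in controls. Of 8 cardiomyocyte markers 7 were lower (5 lower and 1 higher with library totals alone), while 4 of 7 fibroblast markers and 3 of 6 smooth muscle and pericyte markers were higher. The shares over all genes tested were 14.3% lower and 15.9% higher (5.96% lower and 36.5% higher with library totals alone). The summed level of the smooth muscle and pericyte markers was 242 to 382 scaled RPKM in OSKM-CMs and 135 and 145 in controls, without overlap. Acta2 alone gave 142, 319 and 215 of it in OSKM-CMs and 45.9 and 69.4 in controls. In the same list Myh11, Tagln and Rgs5 had log2 fold changes of -0.20, -0.28 and -0.63 and did not pass. The summed level of the fibroblast markers was 87.7 to 199 against 65.7 and 34.5. The markers do not show which cells held these transcripts, and the part of other cells in the results on the proteasome was not tested. In such bulk samples, fewer cells of a type and less RNA per cell cannot be told apart.

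Most proteasome members showed no change past the threshold. Of the 45 members, 8 passed a Benjamini-Hochberg adjusted p of 0.05 in limma, 4 higher and 4 lower in OSKM-CMs. This share of 17.8% stood against 30.2% of the 10915 genes tested. The background was 15.9% for genes higher and 14.3% for genes lower. The lid subunits Psmd8, Psmd14 and Psmd6 and the core chaperone Psmg4 rose. The activator subunits Psme1, Psme2 and Psme4 and the beta ring subunit Psmb2 fell. The median log2 fold change of the members was 0.14, against 0.02 for all genes tested. The values of the groups did not overlap for 22 members, 14 of them higher and 8 lower. Of all genes tested, 57.9% did not overlap, 30.0% higher and 27.8% lower.

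**Figure D1:**
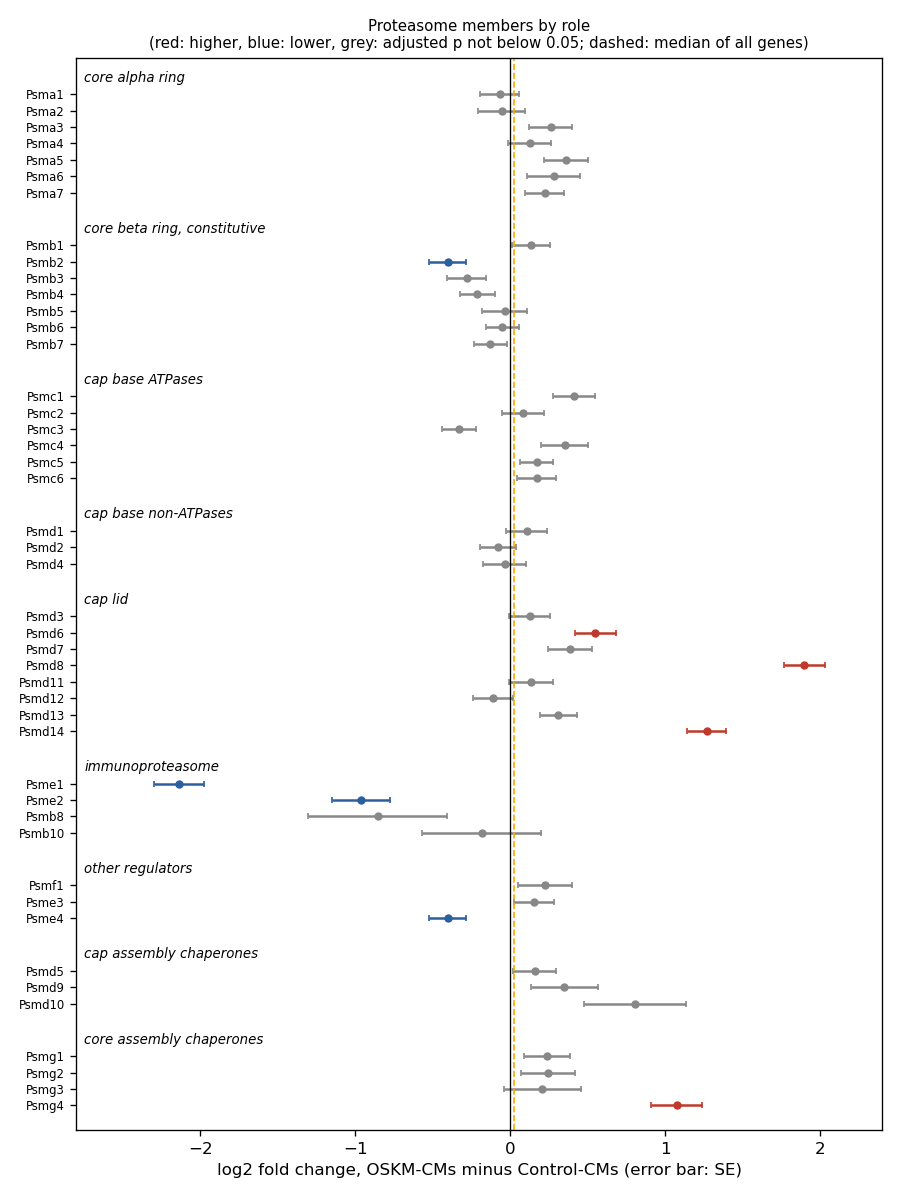
Log2 fold change of OSKM-CMs minus Control-CMs (horizontal axis) for each of the 45 members, grouped by role (3 and 2 libraries, error bars are the SE of the limma fit, dashed line the median of all genes tested). Most members lie near 0, with Psmd8 at 1.90, Psmd14 at 1.27 and Psme1 at -2.14 standing apart.

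The choice of scaling moved nearly all members together. The values above were scaled by the trimmed mean of M values (TMM). With library totals alone the median of all genes tested moved from 0.02 to 0.36 and that of the members from 0.14 to 0.53 on the log2 scale. Then 27 members were higher and 1 lower, against 36.5% and 5.96% of all genes (42.5% in either direction). Of all genes tested, 29.7% passed with limma voom and 28.9% with plain empirical Bayes. Leaving out OSKM-CMs replicate 1, 2 or 3 gave 20.9%, 28.3% and 20.4%, and leaving out Control-CMs replicate 3 or 5 gave 21.9% and 20.8%. The members took 0.459% to 0.537% of all OSKM-CMs reads, against 0.380% in control replicate 3 and 0.335% in replicate 5. In the same libraries mitochondrially encoded transcripts took 9.76% to 11.1% of OSKM-CMs reads and 21.2% and 24.7% of control reads, and their part in this shift was not tested. Psmd8, Psmd14, Psmg4, Psmd6 and Psme1 passed in the same direction under both scalings. Psme2 kept its sign with library totals alone but did not pass (-0.56, adjusted p = 0.0643 in limma), and Psme4 and Psmb2 had values of 0.01 there.

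**Figure D2:**
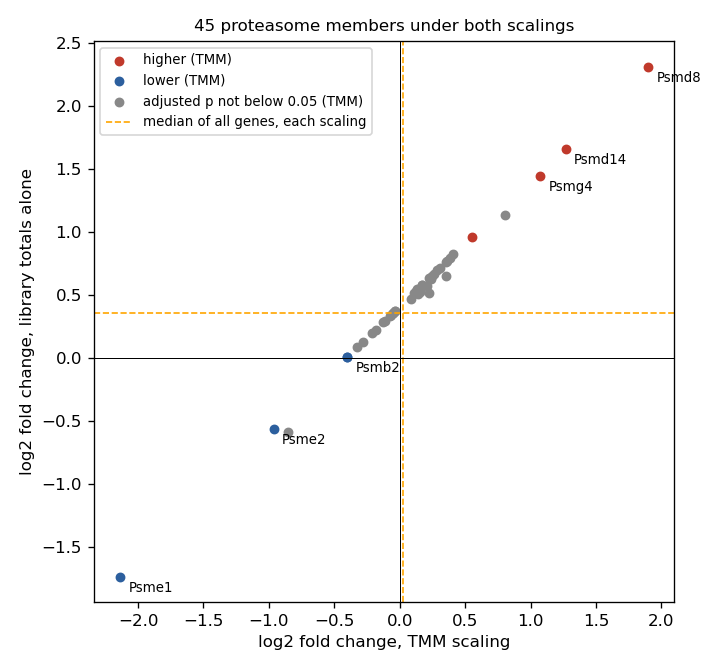
Log2 fold change of each of the 45 members with TMM scaling (horizontal axis) and with library totals alone (vertical axis), coloured by the call with TMM scaling. Points lie along a line shifted upward by about the shift of the median of all genes (dashed lines, 0.02 and 0.36), and Psmd8, Psmd14 and Psmg4 stay above both medians while Psme1 and Psme2 stay below.

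Promoter sequences of 7 members are printed. Psmd8, Psmd14, Psmg4 and Psme1 passed with a log2 fold change beyond 1 in size. Psmb5 and Psmb6 are proteolytic subunits that did not pass, and Psmb8 is the interferon-inducible form of Psmb5. Whether these sequences bear on the transcript levels was not tested. Each is the stretch of 160 bases before the RefSeq start in the build GRCm38.p6, 5′ to 3′ on the gene's strand. The authors' reads were aligned to mm9, so these coordinates belong to the sequences only. Capitals mark matches to any of 5 motifs searched on both strands in the 250 bases before the start.
Psmd8, chr7:29180674-29180833, minus strand: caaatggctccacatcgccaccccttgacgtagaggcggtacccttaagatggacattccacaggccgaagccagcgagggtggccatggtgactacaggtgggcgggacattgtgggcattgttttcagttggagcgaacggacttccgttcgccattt
Psmd14, chr2:61711534-61711693, plus strand: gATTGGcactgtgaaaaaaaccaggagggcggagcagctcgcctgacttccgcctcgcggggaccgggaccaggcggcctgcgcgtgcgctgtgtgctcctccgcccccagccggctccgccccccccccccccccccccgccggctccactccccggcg
Psmg4, chr13:34162804-34162963, plus strand: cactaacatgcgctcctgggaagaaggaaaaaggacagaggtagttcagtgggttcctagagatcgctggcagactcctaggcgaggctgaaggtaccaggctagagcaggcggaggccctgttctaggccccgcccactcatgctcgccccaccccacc
Psme1, chr14:55578334-55578493, plus strand: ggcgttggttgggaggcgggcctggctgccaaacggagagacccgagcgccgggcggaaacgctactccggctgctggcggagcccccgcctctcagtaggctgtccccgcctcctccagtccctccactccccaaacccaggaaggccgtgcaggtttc
Psmb5, chr14:54617996-54618155, minus strand: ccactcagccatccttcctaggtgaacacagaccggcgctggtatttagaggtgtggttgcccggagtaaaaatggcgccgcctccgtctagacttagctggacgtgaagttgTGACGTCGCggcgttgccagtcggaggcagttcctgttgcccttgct
Psmb6, chr11:70525197-70525356, plus strand: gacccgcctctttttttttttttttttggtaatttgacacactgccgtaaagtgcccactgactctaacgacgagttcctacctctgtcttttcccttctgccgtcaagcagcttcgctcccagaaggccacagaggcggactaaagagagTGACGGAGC
Psmb8, chr17:34198035-34198194, plus strand: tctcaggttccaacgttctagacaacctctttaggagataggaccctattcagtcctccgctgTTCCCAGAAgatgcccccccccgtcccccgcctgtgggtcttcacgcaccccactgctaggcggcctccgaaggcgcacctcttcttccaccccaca
The motifs were TGACNNNGC, the core of the antioxidant response element bound by the proteasome regulators Nfe2l1 and Nfe2l2, the CCAAT box (CCAAT), the E-box CACGTG bound by Myc, GAAANNGAAA of interferon-stimulated elements and TTCNNNGAA bound by STAT factors. Psmb5 held the antioxidant core with its first base at -47 from the start and Psmb6 at -9. Psmd14 held a CCAAT box at -159 on the opposite strand, and Psmb8 a STAT element at -97. None of the 5 motifs matched in the windows of Psmd8, Psmg4 and Psme1.

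Windows were found for 38 of the 45 members and for 8364 listed genes. These members had 41 windows and these genes 10784. A gene was counted where any of its windows matched, so genes with more windows had more chances to match. The antioxidant core was in 13.2% of the members with a window and in 14.3% of the listed genes. Besides Psmb5 and Psmb6, the members that held it were Psmc6, Psmd12 and Psmd9, and the proteolytic subunit Psmb7 had no window. The CCAAT box was in 31.6% and 40.8%, the E-box in 10.5% and 10.2%, and the STAT element in 5.26% and 7.25%. GAAANNGAAA was in 3 members (Psmb3, Psmd4 and Psmd9), or 7.89%, and in 3.12% of listed genes. No matches of different motifs overlapped in the members. A match describes the letters in the window and is not shown to be a bound site.

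The lid of the cap held the members that rose most. In this group 3 of 8 rose and none fell, against 15.9% and 14.3% of all genes tested. The lid had a median log2 fold change of 0.35, with a range from -0.11 to 1.90, against a median of 0.02 for all genes tested. Psmd8 (ENSMUSG00000030591.9), the lid subunit Rpn12 that joins the lid last, had scaled RPKM of 245, 206 and 245 in OSKM-CMs (replicates 1 to 3). Controls had 56.6 in replicate 3 and 66.4 in replicate 5. All 3 OSKM values lay more than 3-fold above both controls. The mean rose 3.77-fold, from 61.5 ± 6.93 (SD, n = 2) to 232 ± 23.0 (SD, n = 3), with a log2 fold change of 1.90 (SE 0.13, adjusted p = 0.000125 in limma). Counted in reads, this was 1137, 965 and 1132 against 265 and 308. Per unit length Psmd8 was the most abundant of all 45 members in each OSKM library, and it ranked 14 and 10 in the controls.

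Psmd14 (ENSMUSG00000026914.8), the metalloprotease Rpn11 that cleaves ubiquitin chains from substrates, had scaled RPKM of 33.0, 28.5 and 33.6 in OSKM-CMs and 12.8 and 12.2 in controls, in the same order of replicates as above. The groups were well apart, with each close in itself. Psmd14 rose 2.53-fold, from 12.5 ± 0.405 (SD, n = 2) to 31.7 ± 2.75 (SD, n = 3), a log2 fold change of 1.27 (SE 0.13, adjusted p = 0.000538 in limma). Psmd6 (ENSMUSG00000021737.3), a scaffold subunit of the lid, had 47.7, 49.6 and 50.1 against 29.7 and 37.2. It rose 1.47-fold (log2 change 0.55, with SE 0.13, adjusted p = 0.0174 in limma), but it missed the threshold once Control-CMs replicate 3 was left out (0.39, adjusted p = 0.106 in limma) or OSKM-CMs replicate 3 was (0.53, adjusted p = 0.0559 in limma). Psmd8 and Psmd14 passed in all 12 alternatives, and Psmd6 in 10 of them.

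The other 5 lid subunits did not pass. Psmd7, the partner of Psmd14 in the lid, had a log2 fold change of 0.39 (adjusted p = 0.0732 in limma), with values of 36.7, 30.4 and 38.9 against 25.6 and 27.7 scaled RPKM that did not overlap. Psmd13 had 0.31, and its groups did not overlap either. Psmd3, Psmd11 and Psmd12, scaffold subunits of the lid, had log2 fold changes of 0.13, 0.14 and -0.11, and their groups overlapped.

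Ratios of subunits within a library do not depend on the scaling between libraries. The 6 lid subunits other than Psmd8 and Psmd14 served as the reference for these 2, a choice made after the values were seen and given without a test. Psmd8 stood 3.37, 3.28 and 3.37 log2 units above the mean of the 6 in OSKM-CMs, and 1.60 and 1.74 above it in controls. Psmd14 stood 0.48, 0.43 and 0.50 above it in OSKM-CMs and lay at -0.54 and -0.70 in controls. Psmd14 thus went from below to above the mean of the 6. Among the 17 cap subunits the most abundant exceeded the least abundant by 27.9 to 30.6 times in OSKM-CMs and by 13.2 and 12.5 times in controls, with Psmd8 the most abundant in each OSKM library.

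**Figure D3:**
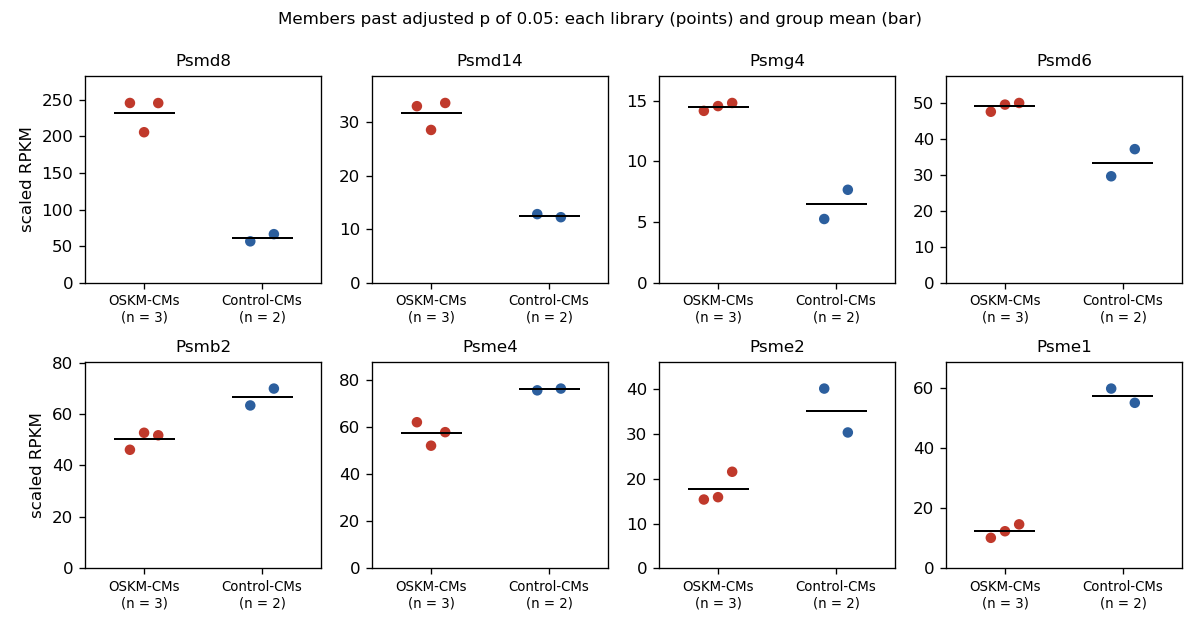
Scaled RPKM (vertical axes, each from 0) of the 8 members past the threshold in each library, with points for libraries (3 OSKM-CMs in red, 2 Control-CMs in blue) and bars for group means. No panel shows overlap of the groups, but these members were picked by their adjusted p in the same libraries. Of all genes tested, 57.9% did not overlap. Psmd8 has the widest gap in level, at 206 to 245 against 56.6 and 66.4.

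The base of the cap had no member past the threshold among its 6 ATPases and 3 other subunits, against 30.2% of all genes tested. The ATPases form the ring that unfolds substrates, and their log2 fold changes ran from -0.33 (Psmc3) to 0.41 (Psmc1), with a median of 0.17. Psmc1 (ENSMUSG00000021178.8) had 97.9, 80.2 and 103.7 scaled RPKM in OSKM-CMs and 69.8 and 70.2 in controls, without overlap (SE 0.14, adjusted p = 0.0556 in limma). Psmc3 (ENSMUSG00000002102.9) went the other way, at 76.0, 68.2 and 76.1 against 90.4 and 94.4 (SE 0.11, adjusted p = 0.0595 in limma). Both passed with limma voom on recovered reads, at adjusted p of 0.0402 for Psmc1 and 0.0412 for Psmc3. Psmc4 at 0.35, Psmc5 and Psmc6 at 0.17 each and Psmc2 at 0.08 did not pass. The scaffold subunits Psmd1 and Psmd2 and the ubiquitin receptor Psmd4 had 0.11, -0.08 and -0.04, and their groups overlapped. Psmd2 was the most abundant of these 3, at 67.2, 68.3 and 71.8 scaled RPKM in OSKM-CMs and 77.7 and 68.4 in controls.

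In the core, 1 of 14 subunits passed (7.14%), against 30.2% of all genes tested. The 7 alpha subunits, which form the gate of the core, had no call in either direction, and their log2 fold changes ran from -0.07 to 0.36 with a median of 0.22. Psma6 was the most abundant of them, with 108.9, 80.0 and 113 scaled RPKM in OSKM-CMs and 75.8 and 88.1 in controls, which overlap. The largest value in the alpha ring was that of Psma5, at 58.5, 57.9 and 70.7 against 52.5 and 44.1 without overlap (log2 change 0.36, with SE 0.14, adjusted p = 0.0898 in limma). Psma3 and Psma7 at 0.26 and 0.22 did not overlap either, and Psma4, Psma2 and Psma1 at 0.13, -0.05 and -0.07 did.

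The 7 constitutive beta subunits had a median of -0.13. Psmb2 (ENSMUSG00000028837.2), a beta subunit without proteolytic activity, had 46.1, 52.7 and 51.7 scaled RPKM in OSKM-CMs and 63.3 and 69.9 in controls. It fell to 75.3% of control (log2 change -0.40, with SE 0.12, adjusted p = 0.0388 in limma). This call held in 6 of 12 alternatives, and leaving out single libraries gave adjusted p from 0.0370 to 0.183, with a pass only without OSKM-CMs replicate 2. Psmb1 was the most abundant beta subunit in OSKM-CMs, at 134, 124 and 153 against 128 and 121, and its groups overlapped. Psmb3 and Psmb4 had -0.28 and -0.21 without overlap, and neither passed.

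The 3 subunits that carry the proteolytic sites were close in both groups. Psmb5, the chymotrypsin-like site, had 32.2, 42.3 and 33.4 scaled RPKM in OSKM-CMs and 35.7 and 37.5 in controls (log2 change -0.03, with SE 0.15). Psmb6, the caspase-like site, had 60.9, 63.3 and 65.1 against 66.4 and 64.5 (-0.05, with SE 0.11). Psmb7, the trypsin-like site, had 110.2, 108.4 and 118 against 120.5 and 125 (-0.13, with SE 0.10). The values of Psmb7 did not overlap, whereas those of Psmb5 and Psmb6 did, and none of the 3 passed. With library totals alone these 3 had positive values, from 0.29 to 0.37, near the median of all genes of 0.36.

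Summed over the 14 core subunits, the level was 864.5, 833 and 964 scaled RPKM in OSKM-CMs and 881 and 879 in controls, a ratio of 1.01 between the means (exact permutation test over libraries, 2-sided, p = 1). Summed over the 17 cap subunits it was 949, 837 and 976 against 665 and 683, a ratio of 1.37 (exact permutation p = 0.2, the smallest that 3 against 2 libraries allow). Without Psmd8 and Psmd14 the cap summed to 670, 603 and 697 against 595 and 604. The OSKM values then reached into the range of the controls. The log2 difference of the mean cap level from the mean core level, which no scaling alters, was -0.43, -0.56 and -0.54 in OSKM-CMs and -0.84 and -0.81 in controls. This difference takes in all 17 cap subunits, Psmd8 and Psmd14 among them, and was not computed without these 2. The order of the core subunits by level was much alike in both groups, with a Spearman rho of 0.89 across the 14 genes, which share their libraries and are not independent replicates.

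**Figure D4:**
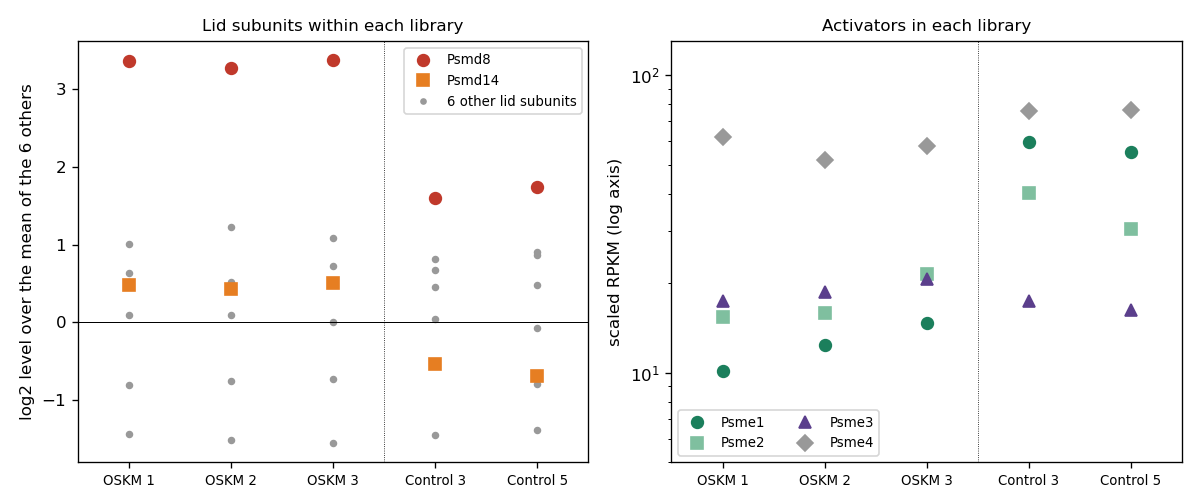
Left, log2 level of each lid subunit over the mean of the 6 lid subunits other than Psmd8 and Psmd14, in each of the 5 libraries. Right, scaled RPKM (log axis) of the activators Psme1 to Psme4 in each library. Psmd8 lies at 3.28 to 3.37 in OSKM-CMs and 1.60 and 1.74 in controls, and Psme1 is above Psme2 in the controls and below it in all 3 OSKM libraries.

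Of the 7 assembly chaperones of the core and the cap, 1 passed, against 30.2% of all genes tested. Psmg4 (ENSMUSG00000071451.3), which with Psmg3 helps the alpha ring to assemble, had 14.2, 14.5 and 14.8 scaled RPKM in OSKM-CMs and 5.25 and 7.66 in controls. It rose 2.25-fold (log2 change 1.07, with SE 0.17, adjusted p = 0.00300 in limma). The reads behind it were few, 24, 25 and 25 against 9 and 13, and with limma voom on those reads the adjusted p was 0.0350. It did not pass in DESeq2 on the same reads, a test given here without its values. Psmg3, its partner, had 0.21, and Psmg1 and Psmg2, the other pair of core chaperones, had 0.24 and 0.25. None of these 3 passed. Psmg2 was the most abundant of the core chaperones, at 21.8, 27.5 and 22.7 scaled RPKM against 16.9 and 23.6. Of the cap chaperones, Psmd5 had 0.16, Psmd9 0.35 and Psmd10 (gankyrin) 0.81. Psmd5 was the most abundant of these, at 7.32, 8.35 and 8.11 scaled RPKM against 7.15 and 6.84, without overlap. Psmd10 had 5.33, 7.44 and 7.58 scaled RPKM against 5.49 and 2.00, so its groups overlapped (SE 0.33, adjusted p = 0.112 in limma). Without Control-CMs replicate 3 it passed (1.37, adjusted p = 0.0107 in limma), and without Control-CMs replicate 5 it had 0.25.

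The activator made of Psme1 and Psme2 was lower in OSKM-CMs. Psme1 (ENSMUSG00000022216.10), PA28 alpha, had 10.2, 12.4 and 14.6 scaled RPKM in OSKM-CMs and 59.8 and 55.0 in controls. The highest OSKM value was below both controls by more than 3-fold. Its mean fell from 57.4 ± 3.35 (SD, n = 2) to 12.4 ± 2.24 (SD, n = 3), 4.63-fold lower (log2 change -2.14, with SE 0.16, adjusted p = 0.000190 in limma). Psme1 passed in all 12 alternatives. In reads this was 69, 85 and 99 against 410 and 374.

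Psme2 (ENSMUSG00000079197.4), PA28 beta, had 15.4, 15.9 and 21.5 scaled RPKM in OSKM-CMs and 40.1 and 30.3 in controls. The groups did not overlap, and the mean fell 2.00-fold (log2 change -0.96, with SE 0.19, adjusted p = 0.00780 in limma). Leaving out Control-CMs replicate 3 moved Psme2 out of the calls (-0.77, adjusted p = 0.0509 in limma). Although the proteins of both genes share a ring, their transcripts did not stay in 1 ratio. Psme1 over Psme2 was 0.662, 0.778 and 0.680 in OSKM-CMs and 1.49 and 1.82 in controls, so that the order of the 2 transcripts per unit length differed between the groups. The entry Psme2b-ps, a near copy of Psme2, had means of 3.62 against 8.10 scaled RPKM, and reads shared between the copies cannot be told apart.

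Next to Psme1, the muscle gene Fitm1 (fat storage-inducing transmembrane protein) lies 1168 bases upstream on the same strand in GENCODE M21. Its scaled RPKM were 12.1, 17.3 and 6.81 in OSKM-CMs and 72.8 and 78.8 in controls (log2 change -2.64, adjusted p = 0.00260 in limma). Emc9, listed as Fam158a, overlaps the end of Psme1 by 14 bases on the opposite strand and had a log2 fold change of -0.91 (adjusted p = 0.0251 in limma). Whether reads of these neighbours entered the value of Psme1 was not tested.

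The other activators moved less. Psme3 (PA28 gamma), the nuclear form of the activator, had 17.4, 18.7 and 20.7 scaled RPKM in OSKM-CMs and 17.4 and 16.2 in controls (log2 change 0.16, with SE 0.13, adjusted p = 0.395 in limma). The summed level of Psme1 and Psme2 was 5.74 and 5.25 times that of Psme3 in controls and 1.47, 1.51 and 1.75 times in OSKM-CMs. Psme4 (PA200), a large activator that caps the core as a single chain, had 62.0, 52.0 and 57.7 against 75.5 and 76.2. It fell to 75.5% of control (log2 change -0.40, with SE 0.12, adjusted p = 0.0379 in limma). This call was lost whenever any 1 library was left out, with adjusted p from 0.0530 to 0.135. Psmf1 (PI31), an inhibitor of the core in vitro, had 2.98, 2.54 and 3.14 against 2.55 and 2.12 (log2 change 0.22, with SE 0.17, adjusted p = 0.371 in limma).

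The inducible proteolytic subunits differed more between the controls than between the groups. Psmb8 (ENSMUSG00000024338.8), which replaces Psmb5, had 1.07, 0.939 and 2.39 scaled RPKM in OSKM-CMs and 6.01 and 1.66 in Control-CMs replicates 3 and 5. It rested on 9, 8 and 20 reads against 51 and 14 (log2 change -0.86, with SE 0.45, adjusted p = 0.201 in limma). Psmb10 (ENSMUSG00000031897.8), which replaces Psmb7, had 38.9, 48.3 and 50.9 against 82.8 and 32.7 (-0.18, with SE 0.38, adjusted p = 0.751 in limma). Control replicate 3 was the highest and replicate 5 the lowest of all 5 libraries for Psmb10. Without Control-CMs replicate 5, Psmb8 (-1.58, adjusted p = 0.0247 in limma) and Psmb10 (-0.84, adjusted p = 0.0253 in limma) were lower in OSKM-CMs. Without replicate 3, Psmb8 had -0.16 and Psmb10 had 0.47 with the opposite sign.

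Levels per unit length place these inducible forms beside the constitutive ones. Psmb8 made up 3.22%, 2.17% and 6.68% of Psmb8 and Psmb5 together in OSKM-CMs, and 14.4% and 4.25% in control replicates 3 and 5 (exact permutation p = 0.4). Psmb10 made up 26.1%, 30.8% and 30.2% of Psmb10 and Psmb7 together, against 40.7% and 20.8% (exact permutation p = 0.8). These tests were 2-sided and could not go below 0.2. Summed over the 4 immunoproteasome members the level was 65.5, 77.4 and 89.5 scaled RPKM in OSKM-CMs and 189 and 119.7 in controls, a ratio of 0.503 (exact permutation p = 0.2). Most of that difference lay in Psme1 and Psme2, which together had a mean of 92.6 ± 10.3 (SD, n = 2) in controls and 29.99 ± 5.55 (SD, n = 3) in OSKM-CMs.

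Genes of interferon response and antigen presentation varied among the same libraries. Their summed level over 17 genes was 248, 138 and 485 scaled RPKM in OSKM-CMs and 630 and 267 in Control-CMs replicates 3 and 5. Of 15 tested, 1 was lower (Tapbp, a chaperone of antigen loading, at -0.88) and none was higher, against 14.3% and 15.9% of all genes tested. The median log2 fold change of these 15 was -0.75. With library totals alone none passed in either direction, Tapbp had -0.49 and the median was -0.44, whereas 2 of 17 were lower with limma voom. Without Control-CMs replicate 3 the call of Tapbp was lost (log2 fold change -0.60, limma adjusted p = 0.0688). Tap1, a subunit of the peptide transporter of antigen presentation, had 1.07, 0.469 and 4.24 against 8.47 and 2.02 scaled RPKM. Leukocyte markers summed to 8.92 to 41.3 in OSKM-CMs and 64.7 and 15.1 in controls over the 7 of 12 that were in the table, and none of the 4 tested passed. The common leukocyte gene Ptprc stood at 0 in OSKM-CMs replicate 2 and at 0.337 to 1.39 scaled RPKM elsewhere, and Coro1a at 0 in Control-CMs replicate 5. Endothelial markers summed to 79.3, 39.6 and 58.3 against 126 and 93.6, with 2 of 8 lower (1 with library totals alone, 5 with limma voom). Over all genes tested 14.3% were lower (5.96% with library totals alone, 14.9% with limma voom). Control replicate 3 was highest in all 3 of these lists, as it was for Psmb8, Psmb10, Psme1 and Psme2, and the part of other cells or of interferon signalling in these members was not tested.

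**Figure D5:**
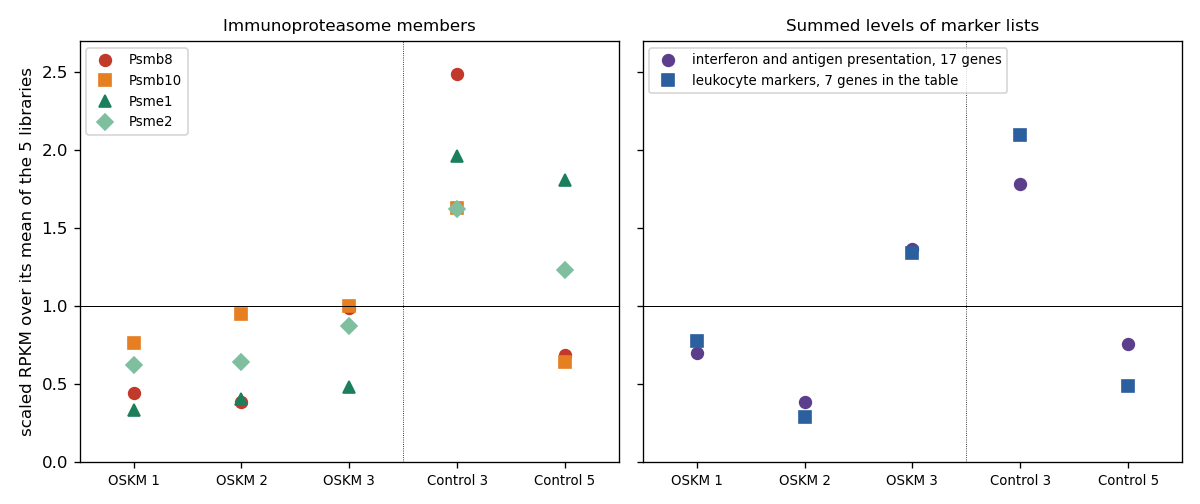
Left, scaled RPKM of the 4 immunoproteasome members in each library, divided by their mean over the 5 libraries. Right, the summed level of 17 interferon and antigen presentation genes and of 7 leukocyte markers, divided likewise. Control replicate 3 is highest for all 6 series, and control replicate 5 is above 1 for Psme1 and Psme2 and below 1 for the other 4.

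Other genes that serve the proteasome were counted from lists kept apart from the members. Of 11 tested partners of the particle, 1 was higher and 1 lower, against 15.9% and 14.3% of all genes tested. Usp14, a deubiquitinase bound to the cap, had 16.0, 12.9 and 17.2 scaled RPKM against 10.8 and 9.15 (log2 change 0.57, adjusted p = 0.0340 in limma). AI314180, the gene of the proteasome adaptor ECM29, had 23.3, 21.3 and 22.0 against 34.1 and 31.9 (-0.55, adjusted p = 0.0108 in limma). Pomp, the maturation factor of the core, had a log2 fold change of 0.28 (adjusted p = 0.128 in limma), and Adrm1, a ubiquitin receptor of the cap, had -0.10 (adjusted p = 0.654 in limma). Shfm1, the small lid subunit without a Psm name, had 199, 220.5 and 171 against 197 and 242 and did not pass (-0.16).

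Transcription factors of proteasome genes and the proteins that process or pair with them had 2 of 8 members higher and none lower. Over all genes tested 15.9% were higher and 14.3% lower. Nfe2l1, the factor that raises subunit genes when the proteasome falls short, had 89.3, 77.7 and 84.0 scaled RPKM in OSKM-CMs and 86.3 and 110.8 in controls (log2 change -0.23, adjusted p = 0.262 in limma). Nfe2l2, the antioxidant regulator, had 15.4, 17.7 and 17.8 against 13.8 and 12.2 (0.36, adjusted p = 0.0790 in limma). Mafk and Maff, small MAF partners of both factors, rose with log2 fold changes of 1.06 (adjusted p = 0.00458 in limma) and 1.05 (adjusted p = 0.0347 in limma).

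Of 14 tested genes of ubiquitin supply and shuttling, 2 were higher, against 15.9% of all genes tested. Rps27a, which encodes ubiquitin fused to a ribosomal protein, rose from 67.4 ± 6.59 (SD, n = 2) to 126 ± 4.97 (SD, n = 3) scaled RPKM (log2 change 0.90, adjusted p = 0.00143 in limma). Uba1, the main ubiquitin-activating enzyme, rose with 0.45 (adjusted p = 0.0328 in limma). With library totals alone the counts were 5 higher and none lower for the partners, 4 and none for the factors, and 8 and none for ubiquitin supply. These shares of 45.5%, 50% and 57.1% stood against 36.5% of all genes tested higher and 5.96% lower.

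Some members lie over other genes, and the strand setting of the authors' counting is not given in the sources used here. In GENCODE M21 the spans of 10 members overlap another protein-coding gene, 7 of them only on the opposite strand. Among the 8 members past the threshold this holds for Psme1 alone.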

How the data were processed

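Bulk RNA sequencing was available for 3 OSKM-CMs and 2 Control-CMs libraries, grouped by sample title. Per the submitters' processing notes, the build was mm9 and the tools included HTSeq, STAR 2.5.3, Trimmomatic, FastQC and CASAVA 1.8.2. The authors deposited RPKM per gene and library, a unit inferred from the values. Per the file headers the same table holds the authors' average log2 CPM, log2 fold change, likelihood-ratio score, p-value and FDR, of which just the average log2 CPM was used, to settle the recovered reads of 440 genes. Each of the 12446 listed genes reached 1 CPM in 2 or more libraries.

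Whole reads were recovered from the RPKM steps for 100% of genes (within 0.0001 reads), with library totals over the listed genes of 2691797 to 3861806. Trimmed means of M values (30% of ratios and 5% of abundances trimmed) were computed from these reads and divided into the RPKM. The 10915 genes averaging 1 RPKM or more entered limma 3.58.1 in R 4.3.3, on log2 of scaled RPKM with 1 added, with trended, robust empirical Bayes. Tests were 2-sided, with Benjamini-Hochberg adjustment over all genes tested and a threshold of 0.05. The added 1 understates changes of low genes, and folds in the text are ratios of mean scaled RPKM. The 12 alternatives were library totals alone, other added values and filters, plain empirical Bayes, limma voom on the recovered reads and leaving out each library. The scripts were tested on simulated data.

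The members and lists were chosen with earlier results of these data known. The rule for values in every library took the proteolytic subunits and their inducible forms, the activators and Psmf1, and in each role the most abundant member and up to 2 past the threshold in each direction. From the other lists, genes past the threshold and Nfe2l1, Nfe2l2, Pomp and Adrm1 were named, some of them without values in every library. Outside these rules, Psma5, Psmc3, Psmd6, Psmd7, Psmd10, Fitm1, Fam158a, Psme2b-ps, Shfm1, Tap1, Ptprc, Coro1a and Acta2 were chosen after their values were seen. Promoter sequences are those of RefSeq on GRCm38.p6. The result of 1 further gene of the ubiquitin supply list is not reported here.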

Additional observations from a re-analysis of the deposited data

How the results depend on the processing

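No paired analysis was made, because no label pairs an OSKM-CMs library with a control library. Just 1 replicate number occurs in both groups, and it is not said to mark a pair. The planned count tests were also run on the recovered reads. In DESeq2 the calls of Psmg4 and Psmb2 were lost, and in edgeR Psmc1 and Psmc3 were called as well. Their values are not given, since count models were set aside for deposited RPKM, and they are not among the 12 alternatives. With library totals alone 27 members were higher and 1 lower (median 0.53), 3985 of all genes were higher and 650 lower, and the ratio of OSKM-CMs to controls was 1.35 for the summed core and 1.83 for the summed cap. There the log2 change turned positive for Psme4 (0.010), Psmb2 (0.011), Psmc3 (0.085), Psmb3 (0.13), Psmb4 (0.20), Psmb10 (0.23), Psmb7 (0.29), Psmd12 (0.30), Psmd2 (0.34), Psma1 (0.34), Psma2 (0.35), Psmb6 (0.36), Psmd4 (0.37) and Psmb5 (0.37). With plain empirical Bayes 2 members were lower. Leaving out each library gave 3 to 7 members higher (7 without OSKM-CMs replicate 2) and 1 to 4 lower (1 without Control-CMs replicate 3, 2 without OSKM-CMs replicate 1 or 3), against 4 and 4. Over all genes it gave 1158 to 1563 higher (1158 without OSKM-CMs replicate 3) and 953 to 1504 lower (953 without Control-CMs replicate 5). It also turned the sign of 7 members, whose log2 changes ran from -0.84 to 0.47 for Psmb10, -0.17 to 0.014 for Psmd2, -0.15 to 0.012 for Psma1, -0.014 to 0.18 for Psmc2, -0.15 to 0.055 for Psma2, -0.11 to 0.069 for Psmd4 and -0.16 to 0.039 for Psmb5. The difference in the share of Psmb10 ran from -11.7 to 8.26 percentage points, the last without Control-CMs replicate 3, against -1.72 with all libraries. The cause of these shifts was not tested. Psmd8, Psmd14 and Psme1 passed in the same direction in all 12 alternatives, as did Psmg4, whose call was lost in DESeq2. Where a control library was left out, the lone control was assumed to vary like the OSKM-CMs libraries. Depth limited Psmb8 (8 to 51 reads), Psmg4 (9 to 25), Psmg3 (14 to 26) and Psmd10 (9 to 34) most.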
